A study of Arabidopsis thaliana with 2 samples.

Results

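The genes described here encode 4 families of plant cell wall enzymes and proteins: expansins, xyloglucan endotransglucosylase/hydrolases (XTH), glycosyl hydrolase family 9 cellulases (GH9) and TRICHOME BIREFRINGENCE-LIKE proteins (TBL). They were chosen by gene symbol alone, as every named gene whose symbol begins with EXPA, EXPB, EXLA, EXLB, XTH, GH9 or TBL. The rule found 51 genes among the 8819 named genes of a table of 21426 rows: 15 expansins, 8 XTH genes, 12 GH9 genes and 16 TBL genes. Each of the 51 had 1 probe. In the gene table used for names these prefixes are carried by 34, 30, 21 and 41 genes in the same order, so genes of each family without a named probe were not analysed here.

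The study set fruits (siliques) of the Arabidopsis thaliana mutant rge1-1 against those of wild-type Col-0. All were taken at 12 DAF from untreated plants kept at 22 °C under days of 16 h light and 8 h dark. On each of 2 replicate 2-colour arrays the rge1-1 RNA was labelled with Cy3 and the Col-0 RNA with Cy5, and 0 arrays had swapped dyes. A dye bias of a probe and the genotype therefore cannot be told apart. Nothing in the labels ties the replicates to separate plants, and the spread behind each p-value may thus be technical. The kind of lesion in rge1-1 is not given in the sources used here.

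RGE1, also known as ZHOUPI, belongs to the basic helix-loop-helix transcription factors and acts in the endosperm, and the endosperm of mutants that lack it persists around a small embryo instead of breaking down. Plant walls are cellulose microfibrils tied together by hemicelluloses such as xyloglucan and xylan and embedded in pectin. Expansins loosen such walls without cutting them, and XTH enzymes cut and rejoin xyloglucan chains. GH9 enzymes cut glucan chains of the cellulose type, and several TBL proteins, though not shown for all, add acetyl groups to hemicelluloses or pectin. In growing seeds and fruits these activities accompany cell expansion, softening and separation.

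Values are log2 ratios of the 2 channels, computed from deposited log ratios that were read as log10; the base is not written in the table. The order of the ratio is not written either. If the software's usual Cy5 over Cy3 holds, a positive ratio means less transcript in rge1-1 than in Col-0, and if the sample titles give the order it means more. Signs are therefore given as deposited and are not assigned to a genotype. A ratio holds no expression level, and in whole siliques fewer cells of a type and less RNA per cell cannot be told apart. The array medians over all probes lay at 0.16 on replicate 1 and 0.02 on replicate 2, so a small positive ratio on replicate 1 is the usual value of that array. Centring each array on its median lowers every mean of both arrays by 0.09. No named probe carried the symbol RGE1 or ZOU, so the mutated gene itself was not checked.

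EXPB4 was the only one of the 51 genes whose ratio was 1.5-fold or more on each array in the same direction, and its sign was negative. Over all rows 2.54% met that limit, and 1.56% met it with a negative sign, so 1 of 51 is near the general share. None of the 51 passed the test of the log ratio against 0 (limma, two-sided, Benjamini-Hochberg adjusted p under 0.05 over all 21426 rows). Over all rows the share past that test was 0%, the smallest adjusted p among the 51 was 0.665, and an exact sign permutation with 2 arrays cannot give a p below 0.5. At an unadjusted p under 0.05 limma counted 3 of the 51 genes, EXPB4, TBL28 and GH9B9, beside 6.6% of all rows. Of the 51 genes, 24 were positive on both arrays, 10 were negative on both, 14 had opposite signs and 3 held a value of exactly 0. Over all rows 42.5% were positive and 16.6% negative on both arrays. With each array centred on its median 14 of the 51 genes lay above both medians and 19 below both, beside 30.6% of all rows for either.

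**Figure D1:**
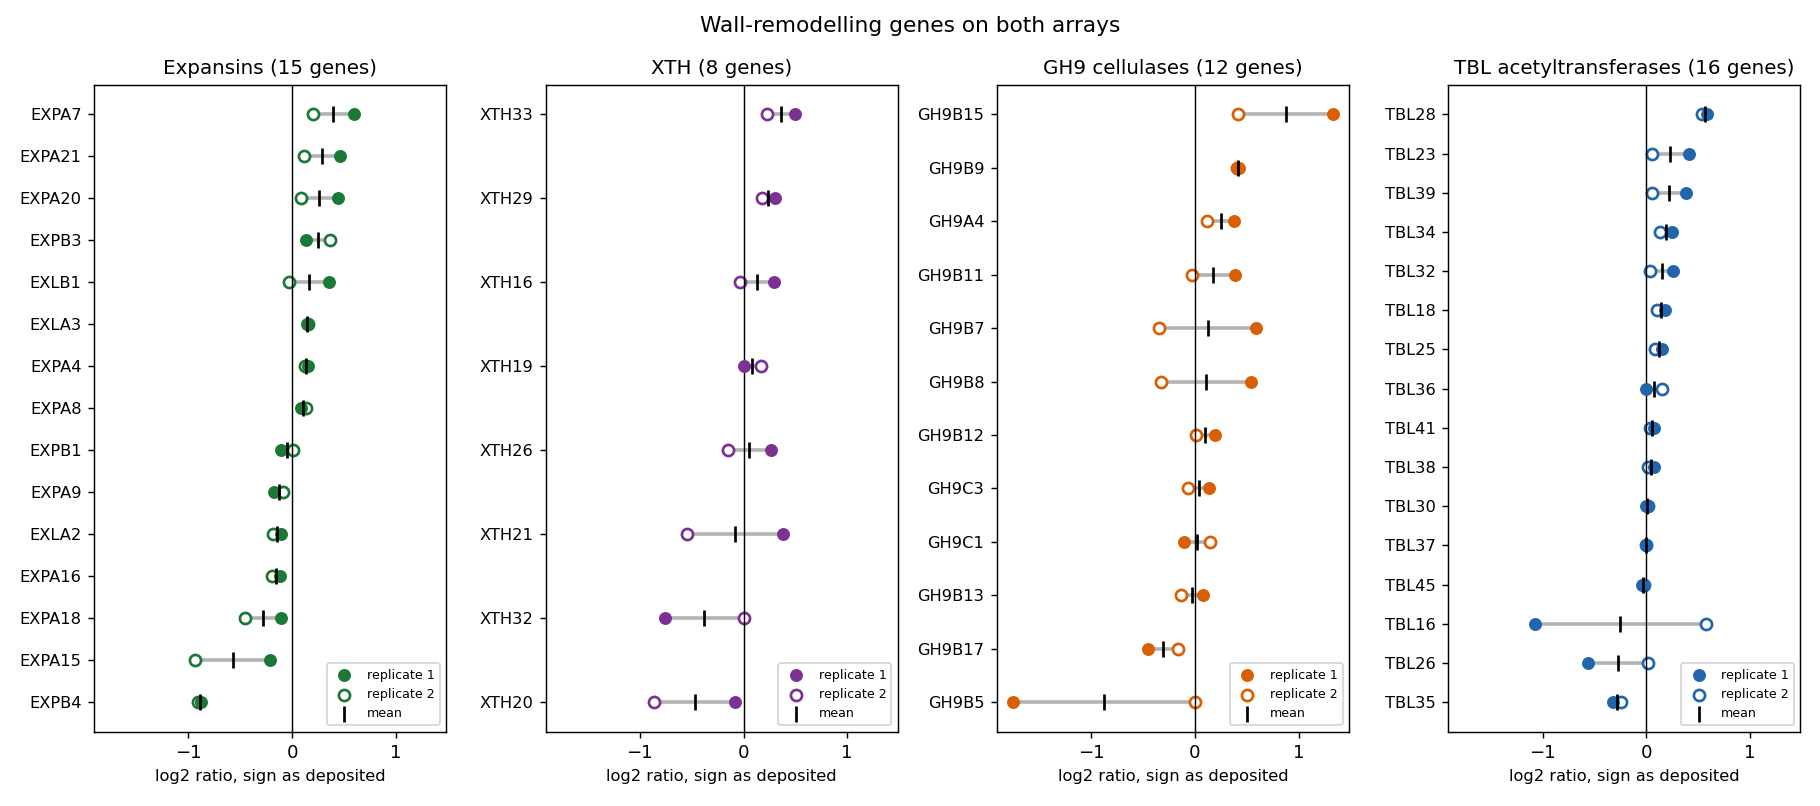
Log2 ratio of each of the 51 genes by family, with the sign as deposited (x axis). Filled points are replicate 1, open points are replicate 2, and the bar marks their mean; EXPB4 has both points near -0.9, while GH9B5 and TBL16 have the widest gaps between the arrays.

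Expansins comprise alpha-expansins (EXPA) and beta-expansins (EXPB), which loosen walls, and expansin-like proteins (EXLA, EXLB), for which that activity has not been shown. The beta-expansin gene EXPB4 (AT2G45110) had log2 ratios of -0.88 on replicate 1 and -0.90 on replicate 2. Both arrays gave nearly the same value, and on them 5.30% and 1.78% of all rows were lower. The mean was -0.89 ± 0.02 (SD, n = 2), a 1.85-fold difference, with a 95% interval of limma from -1.26 to -0.52, an unadjusted p of 0.0047 by limma and an adjusted p of 0.665. The other beta-expansins did not share this value. EXPB1 stood at -0.11 and 0.01 on replicates 1 and 2, and EXPB3 at 0.13 and 0.37.

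EXPA15 (AT2G03090), an alpha-expansin gene, had -0.21 on replicate 1 and -0.93 on replicate 2. It was negative on both arrays and past 1.5-fold only on replicate 2, where 1.64% of all rows were lower. Its mean of -0.57 ± 0.51 (SD, n = 2) had a 95% interval of limma from -1.34 to 0.19 and a limma adjusted p of 0.665. EXPA7 (AT1G12560), an expansin gene of root hair cells, had 0.59 on replicate 1 and 0.20 on replicate 2. It was past 1.5-fold only on replicate 1, and its mean of 0.40 ± 0.28 (SD, n = 2) had an interval from -0.12 to 0.92 and a limma adjusted p of 0.665. EXPA18, the other root hair expansin gene measured, had the opposite sign, with -0.10 and -0.46 on replicates 1 and 2.

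The remaining expansins lay closer to equal. On replicates 1 and 2, EXPA21 stood at 0.46 and 0.11 and EXPA20 at 0.44 and 0.08. EXPA4 stood at 0.15 and 0.12, and EXPA8 at 0.08 and 0.13. All 4 of these alpha-expansin genes were positive on both arrays. EXPA16, at -0.12 and -0.20, and EXPA9, at -0.17 and -0.08, were negative on both. Among the expansin-like genes, EXLA3 stood at 0.14 and 0.16, EXLA2 at -0.10 and -0.18, and EXLB1 at 0.36 and -0.03, so the 3 genes showed 3 different sign patterns. Each of the 9 EXPA genes kept 1 sign on both arrays, 5 positive and 4 negative, beside 59.1% of all rows. With centring this held for 7 of them, 3 above and 4 below both array medians, as EXPA4 and EXPA8 then had opposite signs. For all 15 expansins the counts were 7 positive, 6 negative and 2 of opposite signs, or 40% negative on both arrays beside 16.6% of all rows.

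XTH genes had 1 sign on both arrays in 4 of 8 cases, beside 59.1% of all rows. XTH20 (AT5G48070), which with XTH19 acts in the rejoining of cut stems, had -0.08 on replicate 1 and -0.86 on replicate 2. Its mean was -0.47 ± 0.55 (SD, n = 2), with an interval from -1.29 to 0.34 and a limma adjusted p of 0.665, and nearly all of it came from replicate 2. XTH19 stood at 0.0020 and 0.17. XTH33 (AT1G10550), whose enzyme is bound to the plasma membrane, had 0.50 on replicate 1 and 0.22 on replicate 2, a mean of 0.36 ± 0.19 (SD, n = 2), an interval from -0.09 to 0.81 and a limma adjusted p of 0.665. It was the XTH gene with the largest positive mean.

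Several of the other XTH genes differed between the arrays. XTH21 (AT2G18800), known for a role in root growth, was 0.38 on replicate 1 and -0.54 on replicate 2, and its interval from -1.02 to 0.86 covered 0 widely (limma adjusted p = 0.918). XTH32, from the clade that holds enzymes with xyloglucan hydrolase activity, was -0.76 on replicate 1 and exactly 0 on replicate 2. XTH29 was positive on both arrays, at 0.30 and 0.18. XTH26, a gene of root hairs, stood at 0.27 and -0.15, and XTH16 at 0.29 and -0.03, so both had opposite signs.

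GH9 cellulases held the furthest ratios of either sign on a single array. GH9B15 (AT4G23560) had 1.33 on replicate 1 and 0.42 on replicate 2, which is 2.52-fold and 1.33-fold. It was high on both arrays, where 99.2% and 95.4% of all rows were lower, and its mean was 0.87 ± 0.65 (SD, n = 2), with an interval from -0.05 to 1.80 and a limma adjusted p of 0.665. GH9B5 (AT1G19940) had -1.75 on replicate 1 and exactly 0 on replicate 2, and its interval ran from -2.55 to 0.79 (limma adjusted p = 0.665). The table holds 386 exact zeros on replicate 1 and 474 on replicate 2 among 21500 probes, and how they arose is not given in the sources used here, so the mean of GH9B5 rests on 1 array.

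GH9B9 (AT2G44540) was the GH9 gene on which the arrays came closest, with 0.43 on replicate 1 and 0.40 on replicate 2. Its mean of 0.41 ± 0.02 (SD, n = 2) was 1.33-fold from equal, with an interval from 0.04 to 0.78, an unadjusted p of 0.0378 by limma and an adjusted p of 0.665. GH9B7 (AT1G75680) and GH9B8 turned between the arrays. GH9B7 was 0.59 on replicate 1 and -0.34 on replicate 2, with an interval from -0.82 to 1.07 and a limma adjusted p of 0.871. GH9B8 was 0.54 and -0.33. GH9B7 had 92.7% of all rows below it on replicate 1 and 8.41% on replicate 2, and GH9B8 had 91.3% and 8.93%, so both were near the top of the first array and near the bottom of the second.

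The means of the 7 other GH9 genes lay between -0.31 and 0.25. GH9A4 stood at 0.38 and 0.12 on replicates 1 and 2, GH9B12 at 0.19 and 0.01, and GH9B17 at -0.45 and -0.16. These 3 genes kept their sign, GH9B17 as the only GH9 gene negative on both arrays. GH9B11 stood at 0.39 and -0.03 and GH9B13 at 0.08 and -0.14. The GH9C enzymes carry a carbohydrate-binding module behind the catalytic domain. GH9C1, a gene of root hairs, stood at -0.11 and 0.15, and GH9C3 at 0.13 and -0.07. In all, 4 of 12 GH9 genes were positive on both arrays, 1 was negative on both, 6 had opposite signs and 1 held a zero. Over all rows 42.5% were positive and 16.6% negative on both arrays. With each array centred on its median 3 of the 12 lay above both medians and 4 below both, beside 30.6% of all rows for either.

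TBL proteins included the gene with the largest positive mean after GH9B15. TBL28 (AT2G40150), which encodes a xylan acetyltransferase, had 0.59 on replicate 1 and 0.53 on replicate 2. Both arrays placed it high, with 92.7% and 97.2% of all rows below it, and replicate 2 kept it just under the 1.5-fold limit of 0.58. The mean was 0.56 ± 0.04 (SD, n = 2), or 1.48-fold, with a limma interval from 0.19 to 0.93, an unadjusted p of 0.0173 and an adjusted p of 0.665. The other genes known for xylan acetylation were nearer to equal. TBL34 stood at 0.25 and 0.13 on replicates 1 and 2, TBL32 at 0.26 and 0.04, TBL30 at 0.00045 and 0.02, and TBL35 at -0.32 and -0.25. TBL35 was thus the 1 negative gene of these 5, but TBL30 was almost at equal, and with centring 3 of the 5 lay above both array medians and 2, TBL30 and TBL35, below both.

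Of the genes whose proteins acetylate mannan, TBL23 stood at 0.41 and 0.05, TBL25 at 0.16 and 0.08, and TBL26 at -0.56 and 0.02. TBL16 (AT5G20680) differed most between the arrays among the TBL genes, with -1.07 on replicate 1 and 0.57 on replicate 2, and its interval from -1.82 to 1.32 allows a difference past 2-fold in either direction (limma adjusted p = 0.840). TBL38, described in the mucilage-producing cells of the seed coat, stood at 0.07 and 0.01, near equal on both arrays. TBL39 stood at 0.38 and 0.05, TBL18 at 0.18 and 0.11, TBL41 at 0.08 and 0.04, and TBL36 at -0.01 and 0.15. TBL45 was negative on both arrays, at -0.04 and -0.02. TBL37 was listed at exactly 0 on both, and whether that is a measured equality cannot be read from the table. Over the family 10 of 16 genes were positive on both arrays and 2 negative, beside 42.5% and 16.6% of all rows. With centring 6 lay above both array medians and 6 below both, beside 30.6% of all rows for either.

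**Figure D2:**
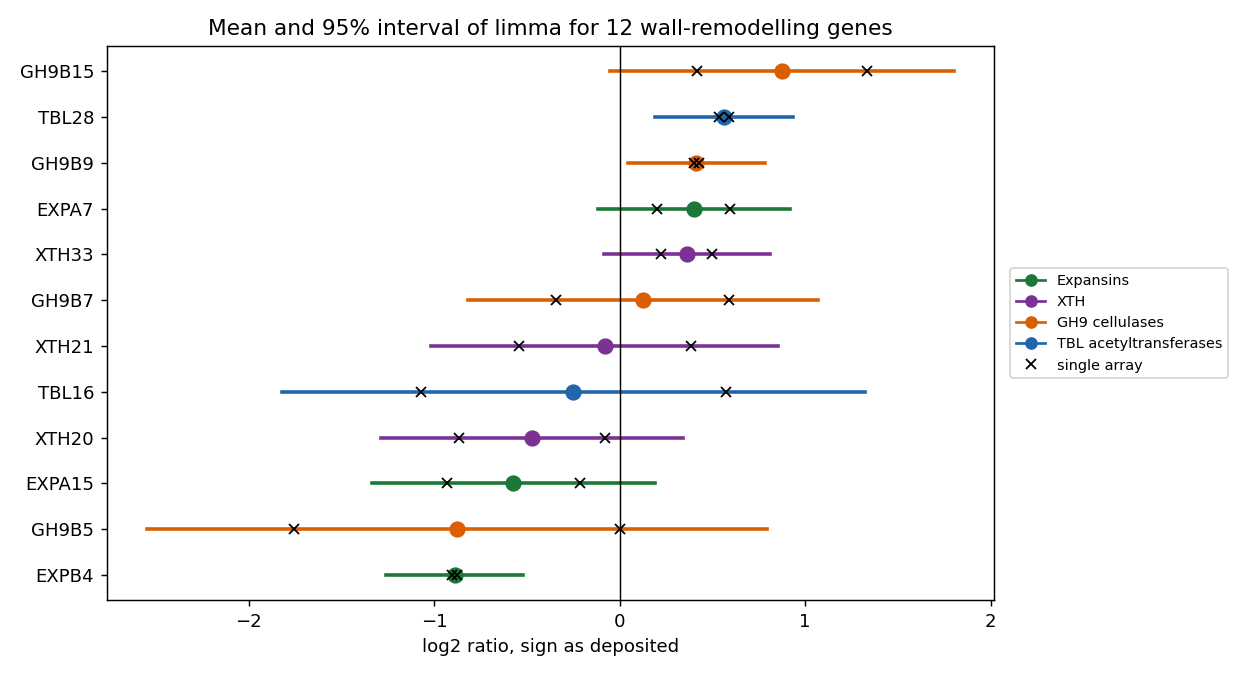
Mean log2 ratio (points) and 95% interval of limma (lines) for 12 genes, the 8 with the largest mean of 1 sign and the 4 with the largest gap between the arrays; crosses are single arrays, colours are families, and the sign is as deposited. The intervals of EXPB4, TBL28 and GH9B9 do not cross 0, and those of the other 9 genes do.

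The 95% intervals show what the arrays could resolve. Their half-width over the 51 genes had a median of 0.42 on the log2 scale, from 0.37 to 1.67, and over all rows the median was 0.43. For 42 of the 51 genes the interval lay within a 2-fold difference in either direction. The other 9 were EXPB4, EXPA15, XTH20, XTH21, XTH32, GH9B5, GH9B7, GH9B15 and TBL16. An adjusted p over the threshold therefore does not show equal abundance for any gene, and for these 9 a 2-fold difference stays inside the interval.

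Set side by side, the families had similar centres on the mean of both arrays. The median log2 ratio was 0.08 for the 23 wall-loosening genes (expansins and XTH), 0.10 for the 12 GH9 cellulases and 0.06 for the 16 TBL genes, beside 0.08 over all rows. With each array centred on its median these became -0.0069, 0.01 and -0.03, beside -0.0081 over all rows, so the sign of the wall-loosening and TBL medians turned. Scaling both arrays to one spread as well gave 0.02, -0.04 and -0.0079. The wall-loosening median was then positive again, while the GH9 and TBL medians were negative. Expansins alone had a median of 0.11, or 0.02 with centring, and XTH genes one of 0.07, which turned to -0.02. The furthest of these medians, as deposited, lay 0.02 from that of all rows. The families were not tested against each other, because genes of a family are not replicates.

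Family medians differed between the arrays. GH9 genes had a median of 0.28 on replicate 1 and -0.02 on replicate 2, XTH genes 0.28 and -0.02, expansins 0.08 and 0.01, and TBL genes 0.08 and 0.05, while all rows had 0.16 and 0.02. Relative to these array medians, GH9 genes lay 0.12 above on replicate 1 and 0.04 below on replicate 2, and TBL genes 0.08 below and 0.02 above. The order of the families was therefore reversed between the arrays for GH9 and TBL genes. The SD over the genes of a family on replicate 1 was 0.74 for GH9 genes, 0.40 for TBL genes, 0.40 for XTH genes and 0.36 for expansins, beside 0.53 over all rows.

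**Figure D3:**
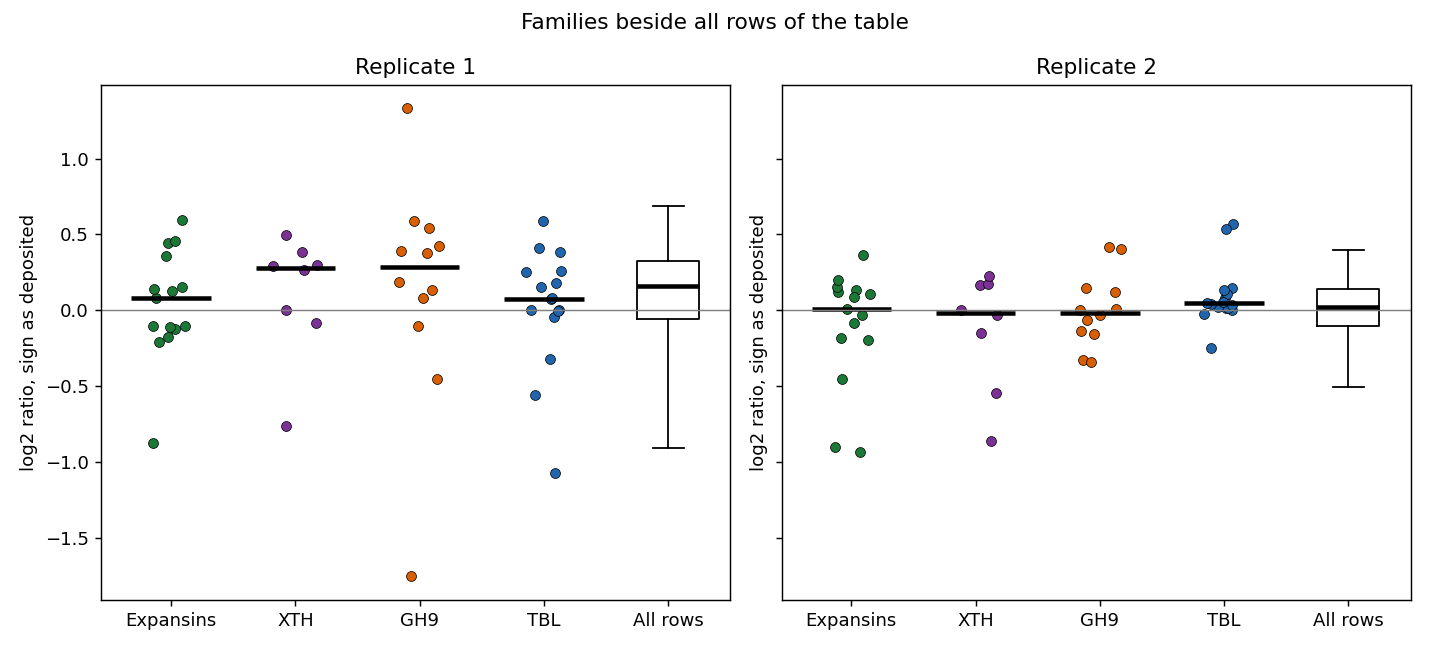
Log2 ratio of each gene (points) by family on replicate 1 (left) and replicate 2 (right), with the family median as a bar and the sign as deposited; the box for all 21426 rows spans the quartiles and its whiskers the 90% of rows in the middle. The GH9 median is 0.28 on replicate 1 and -0.02 on replicate 2, and most points of every family lie within the whiskers.

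How closely the arrays followed each other varied by family. The gap between the arrays had a median of 0.12 for expansins, 0.07 for TBL genes, 0.27 for GH9 genes and 0.37 for XTH genes, beside 0.24 over all rows. Across the 15 expansins, which share both arrays and are not independent replicates, the Pearson correlation of the arrays was 0.76 and the Spearman correlation 0.73, and without EXPB4 they were 0.60 and 0.67. Across the 12 GH9 genes they were 0.21 and 0.07, across the 8 XTH genes 0.09 and 0.36, across the 16 TBL genes -0.12 and 0.36, and over all rows 0.34 and 0.27. Without TBL16 the 15 remaining TBL genes had 0.65 and 0.66, and without GH9B5 the 11 remaining GH9 genes had 0.35 and 0.10. Across all 51 genes they were 0.24 and 0.35, and 0.46 and 0.43 without TBL16 and GH9B5. Both genes were left out for their wide gaps between the arrays, which by itself favours a higher correlation. No rows were left out of the all-row values, so the trimmed values cannot be set against them. On the centred scale 7 of 15 expansins lay below the median of both arrays and 3 above both, whereas 30.6% of all rows lay below both and 30.6% above both.

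**Figure D4:**
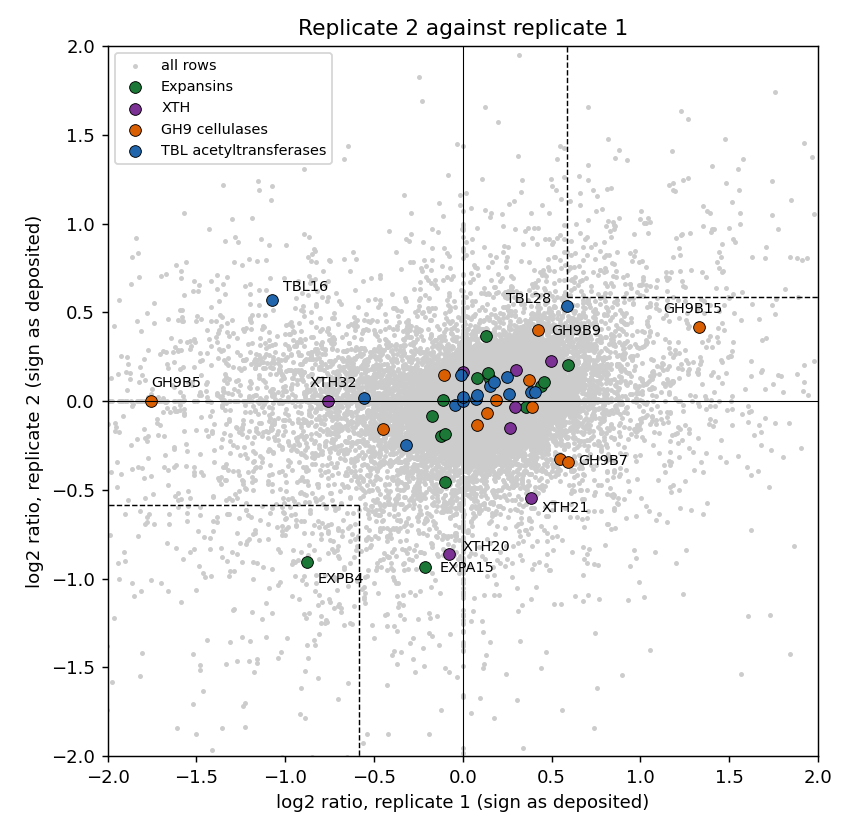
Log2 ratio on replicate 2 (y axis) against replicate 1 (x axis), with the sign as deposited, for the 51 genes (coloured by family) and all rows (grey); 249 rows lie outside the axes. Dashed lines bound ratios of 1.5-fold or more in a common direction, and EXPB4 is the 1 gene of the 51 inside them.

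Single arrays placed more genes past 1.5-fold. On replicate 1 they were 8 of 51, beside 15.9% of all rows: GH9B5, TBL16, XTH32 and EXPB4 with a negative sign and GH9B15, EXPA7, GH9B7 and TBL28 with a positive one. On replicate 2 they were 3 of 51, beside 6.35% of all rows: EXPA15, EXPB4 and XTH20, all negative. EXPB4 was the gene common to both. The list for replicate 1 depended on the offset of that array. With centring EXPA7, GH9B7 and TBL28 stood at 0.44, 0.43 and 0.43 on replicate 1 and no longer passed 1.5-fold. TBL26 and GH9B17, at -0.72 and -0.61, then passed it, and GH9B15 was left as the only positive gene past it. At a lower limit of 0.32 on the log2 scale 4 of 51 genes qualified on both arrays with a common sign, EXPB4 with a negative sign and GH9B15, TBL28 and GH9B9 with a positive one, beside 7.51% of all rows. With centring GH9B9 fell under this limit, at 0.27 on replicate 1, and EXPA15 passed it, at -0.37 and -0.96 on replicates 1 and 2.

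Some of these genes neighbour each other in the genome, which the choice by symbol did not use. TBL28 and TBL30 are adjacent protein-coding genes in the gene table, with 0 genes between them, and differed in ratio. TBL28 lay at a mean of 0.56 and TBL30 at one of 0.01. GH9B11 and GH9B12 are adjacent as well, and GH9B9 lies 1 gene from GH9B11 and 2 genes from GH9B12. In this cluster GH9B9 had a mean of 0.41, GH9B11 one of 0.18 and GH9B12 one of 0.10. All were positive, also after centring, though the mean of GH9B12 was then only 0.0081. On replicate 2 GH9B11 was negative, and with centring GH9B12 was negative there as well, at -0.01. Related neighbours can share sequence that 1 probe detects, and whether these probes tell them apart is not given in the sources used here.

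Other genes of the wall were taken from 6 lists of symbol prefixes. Of these, 19 genes were named, 0 passed limma's adjusted test, and 0 lay past 1.5-fold with 1 sign on both arrays. Over all rows the shares were 0% and 2.54%. The list of the cellulose synthase family and cellulose deposition held 9 genes, with a median of 0.23, or 0.14 with centring. No cellulose synthase (CESA) gene was among them, and all but COB were cellulose synthase-like (CSL) genes. Of the 9, 6 were positive on both arrays and 0 negative, beside 42.5% and 16.6% of all rows. With centring 5 lay above both array medians and 0 below both, beside 30.6% of all rows for either. CSLB03, a cellulose synthase-like gene, was 0.95 on replicate 1 and 0.24 on replicate 2, and CSLA03, of the family that makes mannan backbones, was 0.68 and 0.28. CSLC genes encode the enzymes of the xyloglucan backbone, the chain on which XTH enzymes act. CSLC04 stood at 0.25 and 0.21, CSLC12 at 0.23 and 0.33, CSLC5 at 0.32 and 0.10 and CSLC6 at 0.34 and -0.18. Thus 3 of 4 were positive on both arrays, beside 42.5% of all rows.

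In the pectin list 4 of 6 genes were positive on both arrays and 0 negative, beside 42.5% and 16.6% of all rows. The list had a median of 0.14, or 0.05 with centring, where 3 lay above both array medians and 2 below both. Its largest means of 1 sign belonged to PMEAMT, at 0.29 and 0.25, and to the pectin methylesterase gene VGD1, at 0.33 and 0.19. PMEAMT fell under the prefix by its letters alone and is known as a gene of phosphocholine synthesis, not of pectin. Without it the median of the 5 others was 0.08, or -0.0076 with centring. The xylan and xyloglucan list held IRX15, at -0.61 on replicate 1 and 0.24 on replicate 2, and IRX15-L, at 0.17 and -0.05, both known for xylan synthesis and both with opposite signs. BGAL16, a beta-galactosidase gene, was the 1 wall glycosidase and stood at 0.25 and 0.27. The glycoprotein list held only PRP39, at -0.32 and -0.12, which is known as a splicing factor gene, and the list of TBL relatives held 0 named genes.

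Markers of the tissues in a silique were available for 13 of 31 listed genes. Of the 13, 0 lay past 1.5-fold with 1 sign on both arrays, beside 2.54% of all rows. The ratios cannot show whether a tissue was present. Endosperm markers had means from -0.66 to -0.09 over 3 genes. AGL62, a MADS-box gene that delays wall formation in the endosperm, stood at -0.41 and -0.91 on replicates 1 and 2. AGL38 stood at -0.79 and 0.0011, and AGL28 at -0.08 and -0.09. Means of embryo and seed filling markers ranged from -0.13 to 0.28 over 3 genes. Those of seed coat markers ranged from -0.10 to 0.09 over 3 genes, and those of green tissue markers from -0.49 to 0.14 over 4 genes. The same sign on both arrays was kept by 2 of 3 endosperm, 3 of 3 embryo, 0 of 3 seed coat and 1 of 4 green tissue markers. Together these were 6 of 13, beside 59.1% of all rows, and lists this short do not set the tissues apart. A mean near 0 can hide a wide gap, as LHCB4.1 stood at 1.20 and -0.91 and RCA at -1.22 and 0.24. The part of tissue makeup in the ratios of the wall genes was not tested.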

How the data were processed

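The authors deposited 1 table of log ratios, read here as log10 because the base is not written, for 21500 probes on 2 arrays. Scanner intensities were not used here. These came from Agilent Feature Extraction 7.1.1, per the submitters' processing notes, and no source used here gives the background correction or dye normalization. Gene names came from the array platform's annotation, updated by gene ID to symbols of the TAIR10.1 gene table: a single name was found for 8893 probes, several for 39, and 12568 stayed unnamed here. The values were converted to log2, and probes of 1 gene were averaged into 21426 rows (8819 named genes). Each row was fitted with limma 3.58.1 in R 4.3.3 (intercept only, eBayes, 1 residual and 1.97 prior degrees of freedom), with Benjamini-Hochberg adjustment over all rows. The number of arrays limits the precision. Full statistics are given for the 8 genes with the largest absolute mean of 1 sign and the 4 with the largest difference between arrays, and of other wall lists 2 genes each, with all CSLC genes and other listed genes added after their values were seen. The fit was also run on simulated data, with the fitted prior and with a spread more even between rows. A pass was required only for the more even spread, so this run does not show what the 2 arrays can resolve. The genes, lists and thresholds were chosen with earlier results of these data known. Protein and promoter sequences were planned and were not used here. Plots were drawn with matplotlib 3.10.9.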

Additional observations from a re-analysis of the deposited data

How the results depend on the processing

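The count of 0 limma calls among the 51 genes held with centring, scaling, zeros left out, each probe alone, robust eBayes and no moderation, with a smallest adjusted p between 0.136 (zeros left out) and 0.808 (no moderation) and between 3 and 5 genes at an unadjusted p under 0.05. Leaving out zeros was the 1 setting with calls elsewhere in the table, 55 of 20764 rows. The count of 1 gene past 1.5-fold on both arrays, EXPB4, was 1 with centring or scaling. It was 0 at 2-fold or if the values are log2, and 4 at the limit of 0.32 on the log2 scale. Leaving out zeros or taking each probe alone could not change it, because a gene with a 0 cannot qualify and each of the 51 genes has 1 probe. Counted on the remaining array alone, the genes past 1.5-fold were 3 without replicate 1 and 8 without replicate 2. A single array asks for no shared sign, so it can only add genes. The 34 genes of 1 sign on both arrays became 33 with centring, 14 above and 19 below, so the split moved from 24 positive and 10 negative. The median of expansins was 0.016 with centring, 0.037 with scaling, 0.0066 without replicate 1 and 0.082 without replicate 2. That of TBL genes was -0.028 with centring and -0.0079 with scaling. Scaling turned that of GH9 genes to -0.042, and centring and scaling turned that of XTH genes to -0.020 and -0.023. Centring moved the mean of 20 genes by more than the SD of their arrays and turned the sign of 8. Dim-probe filters and slide blocks could not be tried, because intensities were not used here. No paired analysis was possible because the arrays form 1 group with no second group to pair; each ratio already sets rge1-1 against Col-0 within an array.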
